A study of Saccharomyces cerevisiae with 9 samples.

Results

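The genes described here gave a low but measurable array signal in wild-type budding yeast: their probe sets read between 15 and 30 on each of 3 wild-type arrays. A probe set is a group of short probes for 1 transcript. It had to be annotated to exactly 1 Saccharomyces cerevisiae gene, and names beginning SPO, SPS, SPR, PAU, COS, HXT or REC and genes of chromosome III were left out. Of 5498 probe sets with 1 yeast gene, 121 lay in that window and 12 of these were left out by name, 8 by symbol and 4 on chromosome III. The remaining 109 probe sets stand for 109 of the 5449 genes with such a probe set, and make up 1.98% of the probe sets with 1 gene. Because wild-type signals chose them, every difference from wild type given for these 109 genes is a description without a test.

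Total RNA was measured on 9 Affymetrix arrays with a single label, each with RNA of its own culture, and the series' design text calls the cultures of a strain biological replicates. All cultures were strain JPY12 with histone H3 encoded on a plasmid, pEMH7, and were harvested from rich YPD medium in log phase. Lysine 42 of the H3 was replaced by alanine in K42A (n = 2), by leucine in K42L (n = 2) and by glutamine in K42Q (n = 2), and was kept in wild type (n = 3). The H3 of each strain is thus plasmid-borne in the wild-type cultures as well, and the labels name no second clone of any mutant.

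Histone H3 is a core protein of the nucleosome, around which DNA is wrapped, and K42 lies where the DNA enters and leaves it. Lysine carries a positive charge at the pH of the cell, while alanine, leucine and glutamine carry none. In rich medium, yeast keeps many genes nearly silent: genes for poor nitrogen and carbon sources, for meiosis and spores, for the mating of the other cell type, and genes near chromosome ends.

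Array signals had been scaled to a common level, with a trimmed mean of 150.1 on each array. Probe sets named for a gene that is not one of S. cerevisiae served as background (n = 1746). Their 95th percentile was 9.0 and 8.48 in K42A, 5.0 and 4.9 in K42L, 5.1 and 4.4 in K42Q, and 5.0, 9.58 and 8.8 in wild type, and 0 of them lay between 15 and 30 in all 3 wild-type arrays. K42A and wild-type replicates 2 and 3 thus had the higher background, with medians of 2.2 to 2.65, and K42L, K42Q and wild-type replicate 1 the lower, with medians of 1.0 to 1.3. The labels do not name these 2 sets of arrays as batches. Each of the 109 genes lay above the array's own 95th background percentile on each array, except SSP1 on 1 K42A array. The label "barely transcribed" thus names a low signal that lay above background, and the arrays measured RNA, not transcription. Markers of haploid a cells summed to 3962 to 6595 over 7 probe sets on each array, so each culture had the transcripts of an a-type strain.

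The 109 genes had about the same typical signal in K42L as in wild type and a higher one in K42A and K42Q. Their median signal was 38.7 and 43.1 in K42A, 38.8 and 36.3 in K42Q, 24.2 and 23.8 in K42L, and 23.1, 22.4 and 22.5 in wild type. Both arrays read above 30 for 78 genes in K42A and for 75 in K42Q, against 15 in K42L. In a culture, more cells with a transcript and more of it per cell cannot be told apart. Above 60 on both arrays lay 21 genes in K42A, 12 in K42Q and 0 in K42L, and above 100 lay 6, 3 and 0. The upper end reached 225.6 in K42A and 134.7 in K42Q, both for FIG1, against 47.0 in K42L, for FUS2. Few genes left the window downward: below 15 on both arrays lay 2 genes in K42A, 1 in K42Q and 4 in K42L. The genes also spread apart in order. Across the 109 genes the log2 signals correlated at 0.946 between the K42A arrays, 0.955 between the K42Q arrays and 0.838 between the K42L arrays, while pairs of wild-type arrays correlated at 0.338 to 0.627. The window narrows the wild-type values, genes are not independent replicates, and these correlations carry no test.

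**Figure D1:**
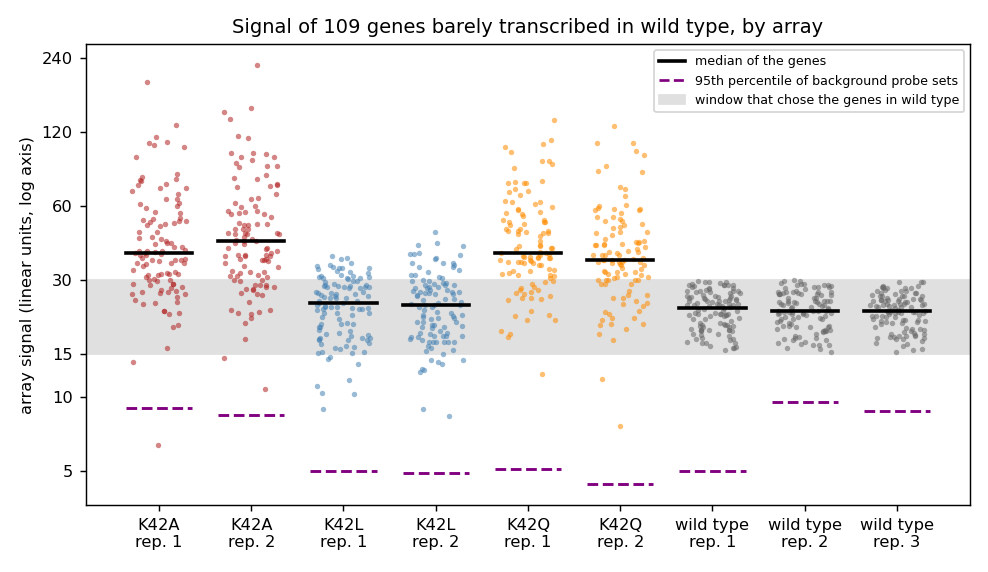
Each point is the array signal of 1 of the 109 genes (linear units on a log axis), 1 column per array. The black bar is the median of the genes, the dashed line the 95th percentile of the background probe sets and the grey band the window of 15 to 30 that chose the genes in wild type. The medians lie at 36.3 to 43.1 in K42A and K42Q and at 23.8 and 24.2 in K42L, and most genes lie well above the dashed line.

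The differences from wild type, with no test, had a median of 0.84 in K42A, 0.71 in K42Q and 0.09 in K42L on the log2 scale. At least 2-fold above wild type lay 46 genes in K42A (42.2%), 37 in K42Q (33.9%) and 0 in K42L, where 8.22, 6.35 and 0.291% of all 5498 single-gene probe sets did so. At least 2-fold below lay 0 genes in K42A and in K42Q and 2 in K42L, CDA1 and SSP1, against 0.0909, 0.346 and 0.182% of all probe sets. The rule used this contrast, so nothing is read from these counts. Other windows of wild-type signal, chosen in the same way, place them on a slope. In K42A the median was 1.0 for probe sets at 7.5 to 15 in wild type, 0.45 at 30 to 60, 0.26 at 60 to 120, 0.08 at 120 to 240, and -0.25 at 960 to 1920. K42Q followed with 0.64, 0.48, 0.27, 0.08 and -0.16, while K42L stayed between -0.04 and 0.10 in each of the 8 windows. The whole distribution of signals was narrower in these mutants. The 10th percentile of all single-gene probe sets was 49.2 and 50.4 in K42A and 50.5 and 45.4 in K42Q, against 32.4 and 32.9 in K42L and 30.5 to 31.1 in wild type, and the 90th percentile was 845 and 856, 841 and 872, 928 and 913, and 926 to 955 in the same order.

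**Figure D2:**
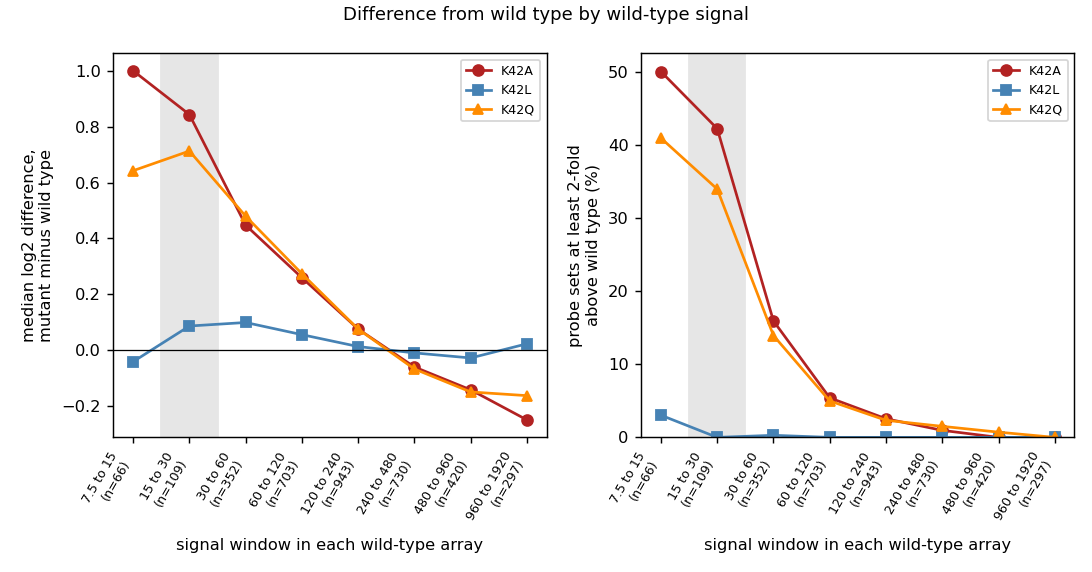
Median log2 difference from wild type (left) and percent of probe sets at least 2-fold above wild type (right) for single-gene probe sets grouped by their signal in each wild-type array, with the number per window below. The grey band is the window of the 109 genes: from there K42A and K42Q fall to the right and cross 0 between the windows 120 to 240 and 240 to 480, and K42L stays near 0.

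A gene picked for a low reading tends to read higher when it is measured again, a shift known as regression to the mean. Its size was read in arrays that did not choose the genes. Probe sets chosen at 15 to 30 on wild-type replicates 1 and 2 (n = 135) had a median of 22.5 in wild-type replicate 3, where 9.63% lay above 30 and as many below 15. The same 135 had medians of 38.3 and 42.0 in K42A, 40.6 and 36.4 in K42Q, and 23.6 and 23.7 in K42L. Above 30 lay 73.3 and 76.3% in K42A, 78.5 and 72.6% in K42Q, and 20 and 20% in K42L. The other 2 pairs of wild-type arrays gave 11.9 and 18.7% above 30 in the wild-type array held out. A repeat of wild type therefore moved about as many probe sets up as down, and K42A and K42Q moved most of them up.

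The choice was then turned round. Probe sets at 15 to 30 on both K42L arrays (n = 153) had medians of 21.4, 22.4 and 22.1 in wild type, 38.2 and 43.1 in K42A, and 39.3 and 35.2 in K42Q. Those at 15 to 30 on both K42Q arrays (n = 85) lay lower elsewhere, at 13.0 and 13.2 in K42L and at 13.5, 14.4 and 13.7 in wild type, but at 26.0 and 27.5 in K42A. Genes that read 15 to 30 in K42Q were thus mostly other, dimmer genes in wild type and K42L.

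**Figure D3:**
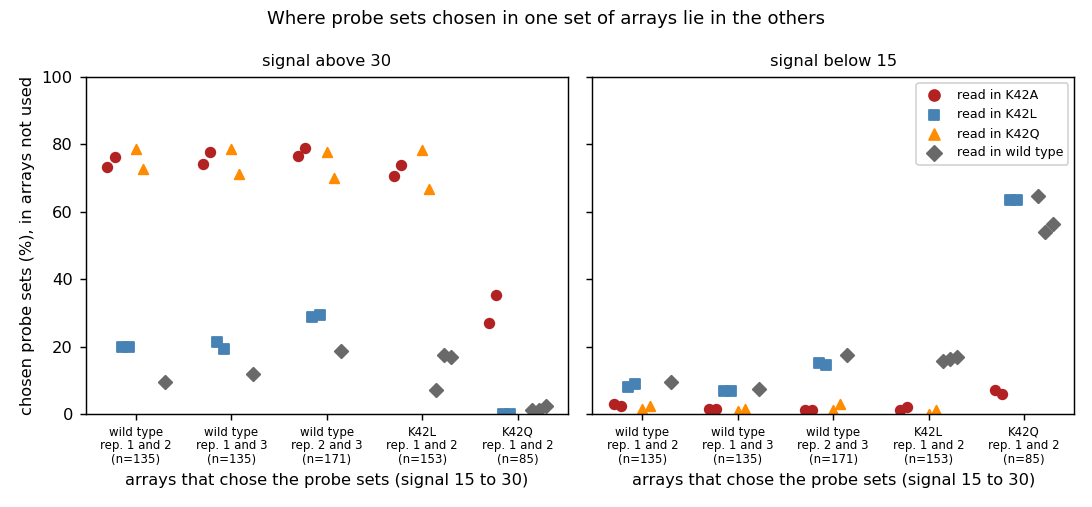
Percent of chosen probe sets that read above 30 (left) or below 15 (right) in arrays that did not choose them. The horizontal axis gives the arrays on which the probe sets were chosen at a signal of 15 to 30, with their number. Where a pair of wild-type or K42L arrays chose the probe sets, K42A and K42Q lie at 66.7 to 78.9% above 30, and wild type at most at 18.7%.

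Held-out arrays also allowed a test, made with limma over all 5452 probe sets above background on at least 2 arrays, at a Benjamini-Hochberg adjusted p under 0.05. Of 205 probe sets chosen on wild-type replicate 1 alone, 161 rose in K42A against wild-type replicates 2 and 3 and 2 fell, where 34.7% of all probe sets rose and 21.1% fell. Their median difference was 0.91, against 0.06 over all probe sets. With quantile scaling 80 of the 205 rose and with cyclic loess scaling 105. The shares of all probe sets under these scalings are not given here. Of 171 chosen on wild-type replicates 2 and 3, 119 rose in K42Q against wild-type replicate 1 and 2 fell (27.3 and 15.4% of all), with a median of 0.83. For K42L against that array the same 171 gave 0 higher and 1 lower (0.147 and 0.0734% of all), with 23 higher and 13 lower at an unadjusted p under 0.05 in limma and a median of 0.08. The single wild-type array in the K42Q and K42L tests was assumed to vary like the other arrays. Of the 153 probe sets chosen on both K42L arrays and set against all 3 wild-type arrays, 112 rose and 1 fell in K42A (30.6 and 15.9% of all), with a median of 0.98. In K42Q 110 rose and 0 fell (28.3 and 14.1% of all; 0 fell at an unadjusted p under 0.05), with a median of 0.76. In the tests chosen on wild type the arrays compared share the lower or the higher background, so in the units deposited the shift in K42A and K42Q was present within both sets of arrays.

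Background probe sets give a view of how dim signals behaved without a yeast gene. Those at 5 to 10 in each wild-type array (n = 19) had medians of 7.2 and 7.8 in K42A, 3.8 and 3.7 in K42Q, 3.4 and 3.6 in K42L, and 6.0, 7.4 and 6.9 in wild type. The 8 at 10 to 30 had medians of 14.2 and 17.7 in K42A, 11.3 and 8.0 in K42Q, 9.2 and 10.9 in K42L, and 10.8, 19.5 and 18.0 in wild type. K42Q lay just above K42L at 5 to 10 and overlapped it at 10 to 30. K42A overlapped wild-type replicates 2 and 3, which share its higher background, at 5 to 10 and lay below them at 10 to 30. Wild-type signals chose these probe sets too, and most background probe sets read lower, so arrays that did not choose them tend to read lower by regression to the mean. At 5 to 10, K42L read 3.4 and 3.6 against 6.0 in wild-type replicate 1, which shares its lower background. The differences from wild type here are a description without a test.

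The mutants could be set against each other with a test, because their arrays did not choose the genes. In K42Q against K42L, 73 of the 109 genes rose and 0 fell, where 22.7% of all 5452 probe sets rose and 11.7% fell. At an unadjusted p under 0.05, limma gave 0 that fell. Of the 73, 28 rose at least 2-fold. The K42Q arrays lay wholly above the K42L arrays for 91 genes, as for 45.6% of all probe sets, and the median difference was 0.76 for the 109 genes and 0.06 for all. Among all calls 66.0% were higher in K42Q, a share that was 44.2% with quantile scaling and 99.4% with scaling to the spike-in controls, which moved the median of all probe sets to 0.18.

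In K42A against K42L, 77 genes rose and 1, CDC13, fell, where 29% of all probe sets rose and 17.6% fell. Without K42A replicate 1, 2 genes fell and without K42L replicate 1, 0 did. Of the 77, 47 rose at least 2-fold. The arrays lay apart in the same direction for 90 genes (47.1% of all), and the median difference was 0.83, against 0.07 over all probe sets. Among all calls 62.2% were higher in K42A, against 42.5% with quantile scaling. These 2 comparisons share the K42L arrays. K42A and K42L also lie in different sets of arrays. With the set as a block, through the wild-type arrays that fall in both, 59 rose and 1 fell (22.1 and 11.5% of all), with a median of 0.77.

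**Figure D4:**
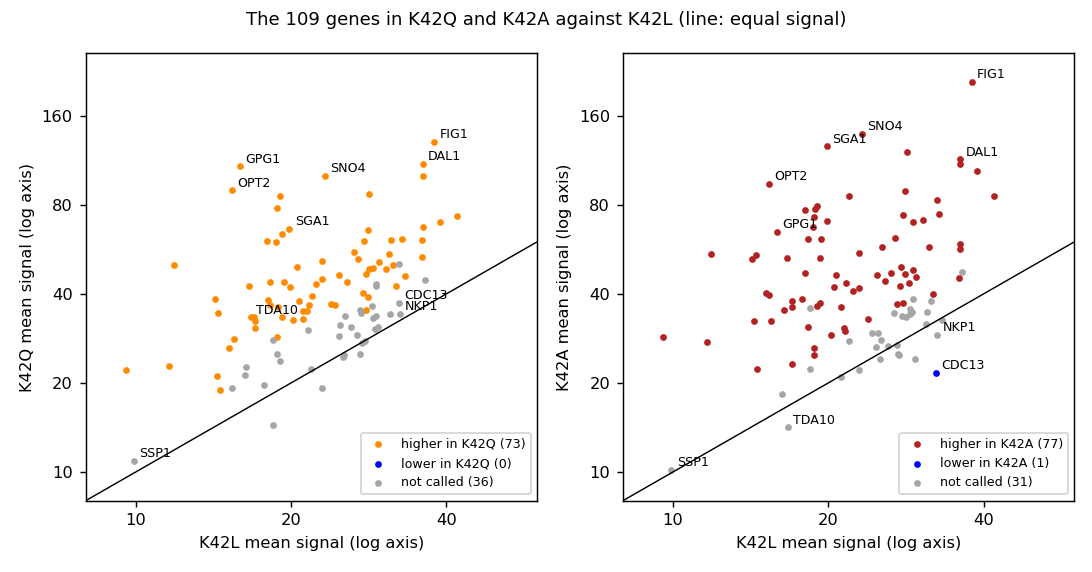
Signal of each of the 109 genes in K42Q (left) or K42A (right) against K42L, as the geometric mean of 2 arrays with values below the floor of 9.58 raised to it, on log axes. Colour marks genes called by limma, the line marks equal signal, and most genes lie above it. A few genes are labelled.

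The scaling between arrays decides how much of this remains. Quantile scaling gives every array the same distribution of signals. Under it, 25 genes rose and 21 fell in K42Q against K42L (14 and 17.7% of all), 36 rose and 35 fell in K42A against K42L (19.2 and 26.1% of all), and the medians were 0.005 and 0.07. Each of the 25 and of the 36 was among the 73 and the 77. Of the 73, 19 had a difference below 0 with quantile scaling and 2 of them, PUT4 and SAE2, passed the test as lower. Of the 77, 17 had a difference below 0 and 9 passed as lower. The 109 genes as a set therefore stood higher in the units deposited. With quantile scaling 22.9 and 33.0% of them rose in K42Q and K42A, and 19.3 and 32.1% fell. Their medians stood beside -0.04 and -0.05 over all probe sets. With cyclic loess scaling their medians were 0.36 and 0.35. Quantile scaling gives equal ranks equal values on every array, so it removes a shift shared by most dim genes, whatever its source. It therefore cannot decide whether such a shift was present. A fall under it, here and in the gene groups below, is a fall in rank. Which of the scales follows RNA per cell was not tested. The 8 largest rises of each comparison, all named below, passed the test under both scalings. The shares of all probe sets under quantile scaling given here also stand beside the counts by gene group below.

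Most genes for nitrogen sources rose in both K42Q and K42A. Of the 7 nitrogen and amino acid genes, 6 rose in K42Q and 6 in K42A against K42L, with medians of 1.27 and 1.22, where 22.7% and 29% of all probe sets rose. With quantile scaling 4 rose and 1 fell in K42Q and 4 rose in K42A, with medians of 0.57 and 0.69. OPT2, an oligopeptide transporter gene, had signals of 95.4 and 92.8 in K42A, 91.5 and 87.5 in K42Q, 15.2 and 15.5 in K42L, and 19.7, 19.3 and 17.4 in wild type. The K42A and K42Q arrays all lay far above the rest, and both K42L arrays lay below the lowest wild-type array. OPT2 was higher in K42Q than in K42L by 2.54 ± 0.094 (log2 difference, SE, adjusted p = 7.84e-06 with limma) and higher in K42A by 2.62 ± 0.094 (adjusted p = 1.33e-05). DAL1, the allantoinase gene of allantoin breakdown, had 115.0 and 113.3 in K42A, 111.2 and 108.7 in K42Q, 33.4 and 38.8 in K42L, and 20.8, 21.2 and 17.9 in wild type. The 4 groups did not overlap. K42L lay above wild type by 0.85 (log2, no test), and K42Q and K42A lay far above both and next to each other. DAL4, the allantoin permease gene next to DAL1, had 106.8 and 135.5 in K42A, 91.6 and 83.3 in K42Q, 30.5 and 26.4 in K42L, and 19.7, 29.9 and 29.5 in wild type, so that K42L overlapped wild type. PUT4, the proline permease gene, reached only 30.9 and 33.9 in K42A and 21.5 and 20.6 in K42Q, against 15.2 and 13.6 in K42L and 18.6, 20 and 22.5 in wild type. It rose in both against K42L, and its K42Q arrays lay within the wild-type range; with quantile scaling its K42Q difference from K42L was -0.34. DAL7, a malate synthase gene of the allantoin pathway, was the 1 member not called, with 52.8 and 42.5 in K42A, 46.0 and 43.0 in K42Q, and 31.1 and 42.5 in K42L. A list of 35 nitrogen source genes was written from general knowledge, and 32 were tested. It had 18 higher and 2 lower in K42Q and 20 higher and 1 lower in K42A against K42L, beside the same 22.7% and 29% higher over all. The list holds 6 of the genes of this set, of which 5 are among its higher genes in each comparison, so it is not separate from them. Other lists written in this way are not given in full here.

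Stress and detoxification genes were few, and 4 of 5 rose in K42Q and 5 of 5 in K42A against K42L. This stands beside 22.7% and 29% of all probe sets, and the medians were 1.26 and 1.75. With quantile scaling 3 rose and 1 fell in K42Q and 3 rose in K42A, with medians of 0.50 and 1.02. SNO4, of the Hsp31 family of chaperones, had 128.7 and 150.0 in K42A, 104.2 and 96.5 in K42Q, 22.8 and 23.7 in K42L, and 27, 24.0 and 23.1 in wild type. Its differences from K42L were 2.58 ± 0.12 in K42A and 2.11 ± 0.12 in K42Q (log2, SE, adjusted p = 3.38e-05 and 2.90e-05 with limma). The probe set of SNO4 is the 1 of the 109 whose probes match more than 1 transcript, and near-identical paralogs of SNO4 exist, so its source is uncertain. SRX1, sulfiredoxin, which reduces oxidised peroxiredoxins, had 60.9 and 86.6 in K42A, 86.1 and 70.6 in K42Q, 19.9 and 17.7 in K42L, and 28.7, 18.6 and 17.5 in wild type. PHM7 had 56.0 and 67.2 in K42A, 46.8 and 41.0 in K42Q, and 17.0 and 19.6 in K42L. ARR2, an arsenate reductase gene, had 35.1 and 37.8 in K42A, 25.3 and 22.1 in K42Q, and 17.9 and 20.2 in K42L, and was higher in K42A than in K42L and than in K42Q. Its difference of K42A from K42L was 0.01 with quantile scaling. The difference of K42A from K42Q did not pass with the set of arrays as a block (adjusted p = 0.1002 with limma). With quantile scaling ARR2 passed as lower in K42Q than in K42L, with a difference of -0.53 (adjusted p = 0.0235 with limma). RCK1, a protein kinase of the response to oxidative stress, had 26.4 and 28.5 in K42A, 24.8 and 20.9 in K42Q, 10.4 and 13.0 in K42L, and 16.6, 17.4 and 15.7 in wild type, so that K42L lay wholly below wild type.

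Genes of carbon use in the set include enzymes and regulators for sources other than glucose. Of 8, 7 rose in K42Q and 7 in K42A against K42L, beside 22.7% and 29% of all probe sets. The medians were 1.05 and 1.18. With quantile scaling 1 rose in K42Q and 4 in K42A (14 and 19.2% of all), with medians of 0.32 and 0.44. MLS1, malate synthase of the glyoxylate cycle, had 49.8 and 55.8 in K42A, 70.2 and 58.3 in K42Q, 22.9 and 16.2 in K42L, and 24.0, 20.4 and 25.1 in wild type. USV1, a zinc finger regulator of growth on non-fermentable carbon, had 53.8 and 54.4 in K42A, 37.2 and 32.2 in K42Q, 13.6 and 15.4 in K42L, and 19.2, 21.5 and 15.6 in wild type. For USV1 both K42L arrays read below each wild-type array. GAL3, the galactose sensor of the GAL genes, gave 26.4 and 36.1 in K42A and 39.1 and 34.5 in K42Q, against 19.8 and 16.8 in K42L; with quantile scaling its K42A difference was -0.23. RTG1, a regulator of the retrograde response to mitochondrial state, was not called, with 39.3 and 37.9 in K42A, 31.6 and 36 in K42Q, and 32.3 and 26.5 in K42L.

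Genes of meiosis and spore formation, which cells growing in rich medium do not need, mostly rose. Of 9, 7 rose in K42Q and 8 in K42A against K42L, beside 22.7% and 29% of all probe sets. The medians were 0.96 and 1.19. With quantile scaling 4 rose and 1 fell in K42Q and 5 rose and 2 fell in K42A, with medians of 0.37 and 0.54. SGA1, a glucoamylase of sporulating cells, had 109.1 and 145.5 in K42A, 75.7 and 58.1 in K42Q, 27.8 and 14.2 in K42L, and 22.5, 24.4 and 27.1 in wild type. Its K42A difference from K42L, 2.67 ± 0.30 (log2, SE, adjusted p = 0.000462 with limma), was 2.18 without K42L replicate 2, and the 2 K42L arrays lay on either side of wild type. OSW2, an outer spore wall gene, had 62.0 and 95 in K42A, 62.6 and 57.8 in K42Q, 18.2 and 17.8 in K42L, and 23.9, 26.3 and 25.8 in wild type. DMC1, the meiotic strand exchange protein, had 59.1 and 56.3 in K42A, 66.6 and 56.0 in K42Q, 26.8 and 36.6 in K42L, and 24.4, 24.2 and 22.7 in wild type. MPC54, of the meiotic spindle pole body, had 47.1 and 46.7 in K42A, 40.2 and 36 in K42Q, and 16.5 and 19.7 in K42L. All K42A and K42Q arrays of DMC1 and MPC54 lay above all K42L and wild-type arrays. HOP1, of the meiotic chromosome axis, stood at 40.7 and 48.2 in K42A and 45.2 and 42.9 in K42Q, against 26.5 and 25 in K42L.

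Some members of this group read below wild type. CDA1, a chitin deacetylase of the spore wall, had 28.8 and 28.6 in K42A, 22.4 and 21.8 in K42Q, 8.9 and 8.4 in K42L, and 23.7, 24.5 and 20 in wild type. K42A lay above wild type and K42L below all others, under the common floor of 9.58, so the differences from K42L are limited by the floor. SSP1, of the prospore membrane edge, had 6.4 and 10.8 in K42A, 12.4 and 7.6 in K42Q, 10.3 and 8.9 in K42L, and 19.6, 16.3 and 16.2 in wild type. All 6 mutant arrays read below all 3 wild-type arrays, and SSP1 did not pass the test between any 2 mutants. Markers of meiotic cells moved with this group: 9 probe sets, among them DMC1 and HOP1, summed to 551 and 602 in K42A, 504 and 440 in K42Q, 253 and 271 in K42L, and 248 to 260 in wild type. None of the 9 was at 0, and their part in the result was not tested.

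Of the 4 mating genes, 3 rose in K42Q and 3 in K42A against K42L, beside 22.7% and 29% of all probe sets. The medians were 0.79 and 0.87. With quantile scaling 2 rose and 1 fell in K42Q and 2 rose in K42A, with medians of 0.33 and 0.41. FIG1, a membrane protein of mating cells, had 192.4 and 225.6 in K42A, 134.7 and 126.7 in K42Q, 34.6 and 41.6 in K42L, and 25.1, 29.0 and 23.3 in wild type. The 4 groups did not overlap, and its differences from K42L were 2.46 ± 0.15 in K42A and 1.78 ± 0.15 in K42Q (log2, SE, adjusted p = 4.84e-05 and 0.000169 with limma). FUS2, needed for cell fusion in mating, had 76.9 and 95.1 in K42A, 75.4 and 71.8 in K42Q, 37.4 and 47.0 in K42L, and 26.7, 26.4 and 23.7 in wild type. STE3, the a-factor receptor made by alpha cells, had 56.7 and 61.6 in K42A, 62.7 and 59.1 in K42Q, 34.1 and 37.9 in K42L, and 29.0, 29.6 and 27.3 in wild type. FIG1, FUS2 and STE3 were thus above the wild-type range in K42L as well. The 4 alpha-cell markers, STE3 among them, summed to 336 and 369 in K42A, 283 and 257 in K42Q, 153 and 158 in K42L, and 170 to 212 in wild type, with MF(ALPHA)1 at 4.8 to 16.1. SAG1 gave most of each of these sums. The 7 a-cell markers summed to 4144 and 3962 in K42A, 4100 and 4748 in K42Q, 6246 and 5885 in K42L, and 5550 to 6595 in wild type. The sums were thus lower in K42A and K42Q. ASG7 went the other way in K42A, at 194.3 and 218.2, against 136.7 and 135.5 in K42L and 91.2 to 131.3 in wild type. In K42Q both ASG7 and MFA1 lay within the wild-type range. The part of either list in the result was not tested.

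Genes of cell division and housekeeping had smaller median differences, and with quantile scaling their medians turned below 0. Under that scaling 14% of all probe sets rose and 17.7% fell in K42Q against K42L, and 19.2% rose and 26.1% fell in K42A. Of 7 genes of DNA replication, repair and telomeres, 5 rose in K42Q and 6 in K42A against K42L. This stands beside 22.7% and 29% of all probe sets, and the medians were 0.60 and 0.62. With quantile scaling 0 rose, and 2 fell in K42Q and 4 in K42A, with medians of -0.27 and -0.50. In the units deposited CDC13, which binds the single strand at telomeres, fell in K42A. It had 19.2 and 24.4 in K42A, 35.1 and 39.5 in K42Q, 33.3 and 31.4 in K42L, and 26.5, 26.7 and 29.4 in wild type. The K42A arrays lay below all others, by 0.58 ± 0.13 from K42L (log2, SE, adjusted p = 0.0100 with limma), although without K42L replicate 1 this difference did not pass the test. SAE2, which starts the trimming of broken DNA ends, had 23.9 and 20.9 in K42A, 18.0 and 19.9 in K42Q, 15.1 and 14.1 in K42L, and 16.1, 16.8 and 18.3 in wild type; it rose in both mutants against K42L, but its differences were -0.48 in K42Q and -0.50 in K42A with quantile scaling. Its K42Q arrays overlapped the upper end of wild type. Of 6 chromosome segregation genes, mostly of the kinetochore, 3 rose in K42Q and 2 in K42A (medians 0.39 and 0.20), where 22.7% and 29% of all probe sets rose. With quantile scaling 2 fell in K42Q and 3 in K42A, with medians of -0.30 and -0.64. NKP1, of the kinetochore, was not called, with 27.1 and 31.3 in K42A, 32.5 and 36.2 in K42Q, and 32.7 and 32.3 in K42L. Of 4 splicing genes, 2 rose in K42Q and 0 in K42A (medians 0.40 and 0.12), beside the same 22.7% and 29% of all probe sets. With quantile scaling 1 of them fell in K42Q and 4 in K42A, with medians of -0.23 and -0.65. Of 7 genes of autophagy and vesicle traffic, 3 rose in each (medians 0.25 and 0.26), again beside 22.7% and 29% of all probe sets. With quantile scaling 1 of these rose in each, and 4 fell in K42Q and 5 in K42A, with medians of -0.47 and -0.50.

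**Figure D5:**
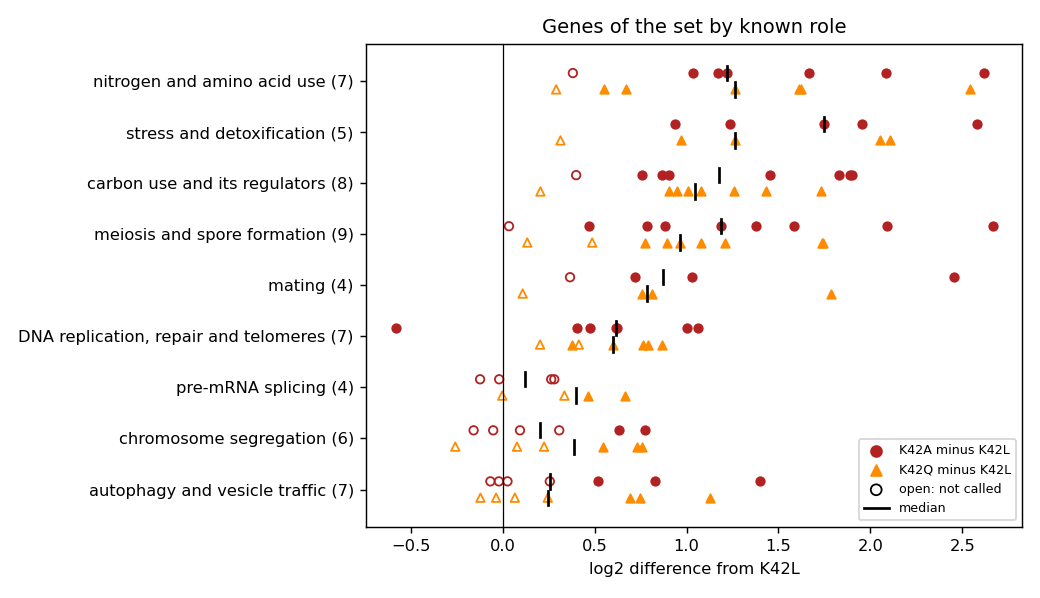
Log2 difference from K42L for each gene with a known role, with K42A as circles above K42Q as triangles, filled where limma called it and open where not. Black bars are medians and numbers in brackets count the genes; nitrogen, stress, carbon and meiosis groups have medians of 0.96 to 1.75, and splicing, chromosome segregation and vesicle traffic of 0.12 to 0.40.

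The 26 genes known only by a systematic name made up 23.9% of the 109, against 9.24% of all single-gene probe sets. Of these, 16 rose in K42Q and 23 in K42A against K42L, with medians of 0.82 and 1.16, where 22.7% and 29% of all probe sets rose. With quantile scaling 6 rose and 4 fell in K42Q and 11 rose and 3 fell in K42A, with medians of -0.03 and 0.30. YOR289W had 77.7 and 80.6 in K42A, 89.0 and 82.3 in K42Q, 17.4 and 20.8 in K42L, and 18.8, 22.8 and 26.6 in wild type, with K42L inside the wild-type range or just below it. YHL042W had 108.6 and 99 in K42A, 74.4 and 66.2 in K42Q, 36.6 and 41.3 in K42L, and 21.5, 24.5 and 21.8 in wild type, with no overlap between groups. Among the 10 outermost genes of each chromosome end were 11 of the 109 (10.1%, against 4.33% of all). Of these, 8 rose in K42Q and 10 in K42A against K42L, with medians of 0.84 and 1.42, where 22.7% and 29% of all probe sets rose. With quantile scaling 4 rose and 1 fell in K42Q and 7 rose and 1 fell in K42A, with medians of 0.12 and 1.04. Named genes outside the role groups numbered 26, of which 17 rose in K42Q and 14 in K42A against K42L. The medians were 0.63 and 0.39, beside the same 22.7% and 29% of all probe sets that rose. With quantile scaling 4 rose and 4 fell in K42Q and 6 rose and 14 fell in K42A, with medians of -0.07 and -0.40. RSA1, a factor of large ribosomal subunit assembly, was not called, with 19.6 and 17.3 in K42A, 26.3 and 17.1 in K42Q, 17.7 and 15 in K42L, and 17.2, 22.4 and 18.4 in wild type.

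In the units deposited the largest rise in K42Q against K42L was that of GPG1, whose product works with the G protein Gpa2. It had 72.9 and 57.5 in K42A, 107.2 and 108.8 in K42Q, 15.1 and 16.8 in K42L, and 20, 16.3 and 16.9 in wild type. GPG1 was higher in K42Q than in K42L by 2.76 ± 0.15 (log2, SE, adjusted p = 2.23e-05 with limma) and lower in K42A than in K42Q by 0.74 (adjusted p = 0.0176), although with the set of arrays as a block the last difference did not pass (adjusted p = 0.163). ECM8, a cell wall related gene of unknown function, had 50.2 and 59.3 in K42A, 59.2 and 42.2 in K42Q, 11.1 and 12.7 in K42L, and 22, 23.5 and 27.7 in wild type. Both K42L arrays of ECM8 lay below all wild-type arrays, and the K42A and K42Q arrays above them. AMF1, an ammonium transporter gene, had 104.7 and 116.3 in K42A, 99.5 and 100.7 in K42Q, 36.8 and 35.2 in K42L, and 24.8, 29.1 and 24.8 in wild type.

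Fewer of these genes passed the test between K42A and K42Q. In K42A against K42Q 18 genes rose and 6 fell, where 9.56% of all probe sets rose and 7.25% fell, with a median of 0.09. The mean log2 signals of the 109 genes correlated at 0.802 between K42A and K42Q, against 0.295 between K42A and K42L and 0.45 between K42Q and K42L, as a description. The counts depend on single arrays. The 18 became 8 without K42A replicate 1, 2 without K42A replicate 2, 11 without either K42L array, 2 without K42Q replicate 1 and 0 without K42Q replicate 2. The 6 became 3 without K42A replicate 2, 2 without K42Q replicate 1, 1 without K42Q replicate 2 and 11 without wild-type replicate 1. With the set of arrays as a block 4 rose and 5 fell (5.87 and 5.96% of all), and with the replicate number as a block 9 rose and 3 fell. With quantile scaling 21 rose and 17 fell (12.6 and 12.2% of all).

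Of the 18 genes higher in K42A than in K42Q, 7 had only a systematic name and 5 were among the outermost genes of a chromosome. Such genes made up 23.9 and 10.1% of all members. Among the genes lower in K42A, 0 had only a systematic name and 1 was outermost. With the set of arrays as a block, 0 genes with only a systematic name rose and 1 fell. Of the outermost genes, 2 rose and 0 fell with this block. YOL163W had 73.9 and 98.8 in K42A and 38.7 and 40 in K42Q, with a difference of 1.12 ± 0.16 (log2, SE, adjusted p = 0.00777 with limma). YHR214C-D had 68.9 and 87.2 in K42A, against 36.8 and 35.4 in K42Q, and YNR066C had 38.9 and 40.5, against 20.5 and 18.0. BSC1, related to flocculin genes, had 30.4 and 42.0 in K42A, 17.6 and 11.8 in K42Q, 26.4 and 12.9 in K42L, and 17.1, 21.7 and 24.4 in wild type, where both K42A arrays and 1 K42L array lay above the wild-type range. YDR246W-A, YDR182W-A, YKL070W and MBR1 differed by 0.73 to 0.96. With the set of arrays as a block, none of these 8 passed the test.

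In the other direction TDA10, of unknown function, had 13.9 and 14.4 in K42A, 31.5 and 35.4 in K42Q, 16.6 and 16.8 in K42L, and 21.4, 15.9 and 17.8 in wild type. K42Q alone lay above the wild-type range, and both K42A arrays lay below it. TDA10 was lower in K42A than in K42Q by 1.24 (adjusted p = 0.00558 with limma), and this held under each alternative tried. IRC4, of unknown function, had 32.8 and 30.7 in K42A and 61.0 and 48.9 in K42Q, PCI8, a subunit of the signalosome, 22 and 20.1 against 35.7 and 30.1, and UBC11, a ubiquitin-conjugating enzyme, 24.4 and 21.9 against 34.5 and 32.5. With the set of arrays as a block IRC4 and UBC11 did not pass the test (adjusted p = 0.240 and 0.0725 with limma). PCI8 lies next to HOP1, which differed by 0.01 between these mutants.

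Among the 109 genes were 4 pairs of neighbours on a chromosome: DAL1 and DAL4, DAL7 and DAL3, HPA2 and OPT2, and HOP1 and PCI8. HPA2, a histone acetyltransferase gene, had 50.7 and 55.5 in K42A, 51.8 and 35.2 in K42Q, and 15.7 and 17.6 in K42L, and rose with its neighbour OPT2. YLL066W-B has 2 further probe sets, which read 33.8, 29.6 and 38.2, and 43.4, 39.3 and 31.0 in wild type. Neither met the rule, so the low wild-type signal of this gene rests on 1 of its probe sets. Both are of types whose probes can match more than 1 transcript. They read 143.8 to 172.4 in K42A, 79.4 to 119.2 in K42Q and 40.4 to 66.2 in K42L.

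The genes nearest the edges of the window show what the limits of 15 and 30 separate. MFM1, with a lowest wild-type signal of 15.2, had 31.8 and 37.7 in K42A and 37.0 and 31.8 in K42Q. PHM8, just outside at a lowest wild-type signal of 14.8, had 81 and 72.6 in K42A, 79.3 and 67.4 in K42Q, and 18.5 and 24.2 in K42L, and RGI2, at 14.9, had 33.0 and 38.3, 56.5 and 43.0, and 17.0 and 20.1. At the upper edge RIM13, with a highest wild-type signal of 29.7, had 42.4 and 48.5 in K42A, 52.8 and 53.9 in K42Q, and 33.7 and 38.1 in K42L. FMP40 and GUP2, both just outside at 30.2, differed from each other: FMP40 had 118.3 and 139.9 in K42A and 111.6 and 110.1 in K42Q, and GUP2 22.2 and 26.7 in K42A and 27.1 and 23.5 in K42Q.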

How the data were processed

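The deposited values are array intensities on a linear scale that the authors made with GCOS 1.4 and MAS5, per the submitters' processing notes. For MAS5 neither version nor scaling target is given in the sources used here. The members and gene lists were chosen with earlier results of these data known, lists came from general knowledge, and the role groups were made after the members were known.

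Probe sets were named from the platform annotation. Signals were raised to a floor of 9.58, the highest 95th background percentile of the 9 arrays, and used as log2 without further scaling. Limma 3.58.1 in R 4.3.3 fitted 1 mean per group over all 9 arrays with an intensity trend, for 5452 single-gene probe sets above background on at least 2 arrays, with Benjamini-Hochberg adjustment over all of them and a threshold of 0.05. The fit was tested on simulated data. The number of arrays limits the precision.

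Genes named are, per comparison of mutants, up to 8 called members with the largest increase and 8 with the largest decrease whose arrays do not overlap, per mutant the 5 highest and 3 lowest members, up to 3 members of each list, and 2 genes on either side of each window edge. Other genes, such as NKP1, RTG1, PUT4 and HPA2, were named after their values were seen. Same-numbered replicates did not deviate together (correlations of -0.219, 0.00944 and -0.207), so the number does not pair arrays. The 2 sets of arrays were read from the background probe sets. Promoter motifs were planned and are not analysed here. Figures used Python 3.11.15 and matplotlib 3.10.9.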

Additional observations from a re-analysis of the deposited data

How the results depend on the processing

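The scaling between arrays changed the counts. Under quantile, cyclic loess and spike-in scaling, 25, 44 and 37 members rose in K42Q against K42L in place of 73, and 21, 2 and 0 fell. The median differences of the members were 0.005, 0.36 and 0.88 in the same order, in place of 0.76. Spike-in scaling, read for K42Q against K42L alone, thus gave fewer calls but a larger median. Over all probe sets it gave 307 higher in place of 1238. In K42A against K42L, 36 rose with quantile and 50 with loess scaling in place of 77, and 35 and 14 fell in place of 1. In K42A against K42Q, 17 and 12 fell in place of 6. The median differences from wild type became 0.0073 and 0.33 in K42A, 0.038 and 0.062 in K42L, and -0.052 and 0.32 in K42Q. Quantile scaling, which removes a shift shared by most dim genes, thus put the K42Q median below 0. Of the 205 held-out probe sets, 80 and 105 rose in K42A in place of 161. With 16 added before the logarithm these medians were 0.54 in K42A, 0.048 in K42L and 0.45 in K42Q, and with the background median subtracted 0.16 in K42L and 0.82 in K42Q. Within the set of arrays of the mutant they were 0.057 in K42L and 0.82 in K42Q. Chosen on wild-type arrays of the other set, K42Q gave 0.83, and chosen on both K42L arrays, an alternative added after the data were seen, K42A gave 0.98.

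A window of 10 to 40 holds more probe sets by construction, and their number is not given here, so its counts carry no share. It gave 223 higher and 1 lower in K42Q against K42L, 238 and 3 in K42A against K42L, and 41 and 20 in K42A against K42Q, with medians of 0.93 in K42A and 0.80 in K42Q. Fallen members in K42A against K42L numbered 2 with the background median subtracted, with median centring and with only the 2 groups fitted. With the replicate block, 68 rose in K42Q and 69 in K42A against K42L, and 9 rose and 3 fell in K42A against K42Q in place of 18 and 6. Over all 5452 probe sets this block gave 999 and 1375 higher against K42L, and 250 higher and 176 lower in K42A against K42Q. The set of arrays as a block gave 4 higher in K42A against K42Q (5.87% of all).

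Leaving out each array in turn gave 51 to 77 higher and each time 0 lower in K42Q against K42L, 63 to 81 higher and 0 to 2 lower in K42A against K42L, and 0 to 22 higher and 1 to 11 lower in K42A against K42Q. The medians ranged over 0.72 to 0.95 in K42A, 0.069 to 0.11 in K42L and 0.70 to 0.81 in K42Q, and the held-out count over 146 to 153. For 31 differences, the largest called in each comparison, 577 of the values under alternatives kept their side of the threshold and direction, 82 lost the threshold and 0 reversed; all 82 concern K42A against K42Q or CDC13. Among smaller rises against K42L direction did turn: with quantile scaling 19 of the 73 in K42Q and 17 of the 77 in K42A were below 0, PUT4 (-0.34) and SAE2 (-0.48) in K42Q and SAE2 (-0.50) in K42A among those past the threshold. With 2 arrays per mutant and signals near the floor, a fall of a dim gene cannot be measured far. The cause of these changes was not tested.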

Other observations

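Of the 12 genes in the window that were left out by name, HSP30, a membrane heat shock protein, had 168.9 and 150.4 in K42A, 177.4 and 162.4 in K42Q, 22.2 and 27.2 in K42L, and 28.6, 27.1 and 19.6 in wild type. HXT5, a hexose transporter gene, had 106.6 and 155.4 in K42A, 103.5 and 88.0 in K42Q, 19.3 and 16 in K42L, and 16.7, 23.5 and 25.1 in wild type. COS10, a gene near a chromosome end, had 29.5 and 29.3 in K42A, 17.3 and 18.8 in K42Q, 17.4 and 24.7 in K42L, and 23.0, 22.9 and 29.7 in wild type. The K42A and K42Q arrays of HSP30 and HXT5 lay above all others, and those of COS10 did not. All 12 together had a median log2 difference from wild type of 1.56 in K42A, 1.15 in K42Q and -0.04 in K42L, with no test, and were chosen here after their values were seen.

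Probe sets with no listed gene also lay in the window, 14 of them. Their median signal was 40.8 and 45.3 in K42A, 38.7 and 31.6 in K42Q, 19.4 and 20.8 in K42L, and 20.1, 23.9 and 21.1 in wild type.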
